A study of Mus musculus with 6 samples.

Results

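The 10 genes described here encode chains of fibril-forming collagens, of type VI collagen and of a collagen that binds to fibrils, namely *Col1a1* and *Col1a2* (type I), *Col3a1* (type III), *Col5a1*, *Col5a2* and *Col5a3* (type V), *Col6a1*, *Col6a2* and *Col6a3* (type VI) and *Col12a1* (type XII). They were taken by name from the annotation of the array, which gave 12 probes of 10 genes among 55681 probes and 21667 named genes. Total RNA came from 1G11 cells, a mouse microvascular endothelial line from the strain C57BL/6NCrLBR. The 3 1G11-mock cultures did not overexpress superoxide dismutase-3 (SOD3), an enzyme that removes superoxide outside the cell, and the 3 1G11-SOD3 cultures did. All 6 were kept for 6 h in conditioned medium of N202.1A, a mouse mammary cancer line, before the RNA was hybridized to single-color Agilent arrays. No culture without that medium was analysed here, and the sources do not say whether either line is a single clone.

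Types I, III and V belong to the fibrillar collagens, whose chains wind into triple helices, are trimmed outside the cell and pack side by side into fibers. Type V collagen lies inside these fibers and starts their assembly, type XII binds to their surface, and type VI forms beaded filaments between fibers and cells from one chain each of α1, α2 and α3. Endothelial cells rest on a basement membrane built mostly from other collagens and from laminins, and fibroblasts and mural cells are the usual main source of the fibrillar chains.

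Intensities were background corrected and quantile normalized on the log2 scale, so that 1 unit is a doubling. By the scanner software, signal was well above background at 34.2 to 43.8% of the 59305 non-control spots of an array, and 0 spots were saturated. *Sod3* read 13.61, 12.66 and 9.86 on the 1G11-mock arrays and 16.37, 16.30 and 16.26 on the 1G11-SOD3 arrays (difference in log2, 4.27, adjusted p = 0.00763, or 0.0508 without 1G11-SOD3 replicate 3). Its probe lies in the part of the array, described next, that read dim in 1G11-mock, and with the adjustment for place given below the difference was 2.55 (adjusted p = 0.0129). All arrays of a line lay in the same row of the slide, so that line and slide row cannot be told apart. Place on the array also entered the values. In a rectangle around the center, called the middle from here on, spots read dim on 1G11-mock arrays. Among 399 probes printed 10 times each, those with a mean log2 intensity over 9 and copies on both sides of that border differed between middle copies and the others by a median of -0.67, -0.86 and -2.42 on 1G11-mock arrays 1, 2 and 3, against 0.15, -0.18 and 0.11 on the 1G11-SOD3 arrays. Both *Col6a2* probes lie in the middle and are reported apart, and the *Col1a1* probe lies 2 columns outside it. Each change of a collagen is therefore given as normalized and after a smooth surface over rows and columns was taken off each array, here called position adjusted.

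Each member is read by a probe of 60 bases, of which the first 30 are printed for the probes whose calls are described.
Col1a1: tgaccaactgaacgtgaccaaaaaccaaaa
Col1a2: accaagaattccgtgtggaggttggccccg
Col3a1: ataagccaaactctctgaaaccccagcaaa
Col5a2: ctatgcgttagaaaactcaggctagtgatt
Col6a2, first probe: ttctttgacaggttcatccgctggatctgt
Col6a2, second probe: ggctcagactcagaggtagtgagcgattgc
Col6a3: atggtcccagttttctggattagacttcga
The array annotation places the probe of *Col1a1* at chr11:94813115-94813174, of *Col1a2* at chr6:4490619-4490678, of *Col3a1* at chr1:45405589-45405648, of *Col5a2* at chr1:45431204-45431263, of *Col6a3* at chr1:92663663-92663722 and those of *Col6a2* at chr10:76058931-76058990 and chr10:76060580-76060639. Its build is not given in the files and is not that of the promoters below, since only 2 of the 12 member probes fall inside their gene in GRCm38.p6.

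Higher in the 1G11-SOD3 line were *Col1a1*, *Col1a2*, *Col3a1* and *Col5a2* among the probes outside the middle, and *Col6a2* by both probes inside it, while *Col6a3* was lower. A probe was called if the lines differed over 2-fold with an adjusted p below 0.05 in limma, fitted to all probes. Outside the middle, 4 of 10 member probes were called higher, where 0.660% of 49526 probes were, and 1 was called lower, where 1.20% were. Of the 8 with signal well above background on every array of a line, 5 were called, where 5.06% of such probes were. Of these 8, *Col1a2*, *Col5a2* and the first *Col12a1* probe had it on every array only in 1G11-SOD3. *Col1a2* and *Col5a2* were called higher there, so this share is no separate support. In the middle, 2 of 2 were called higher, where 11.9% of 6435 probes were. Both had signal well above background on every array of a line, the second *Col6a2* probe only in 1G11-SOD3. Of middle probes with such signal, 33.5% were called in either direction. The 2 called middle probes are of 1 gene, *Col6a2*, and the spots around them differed between the lines by medians of 1.96 and 1.97. Such differences varied within the middle, so the shares over all of it are not a baseline for these places. Outside it, the spots around *Col1a1* and *Col5a2* differed by medians of 0.62 and 0.55. The shares over all probes outside the middle are thus no baseline for these 2 places either. Position adjusted, 5 of the 10 outside the middle were called higher and 0 lower, where 1.07% and 0.810% of probes were. Among the 5 was *Col5a3*, well above background on no array. With 1 probe for each gene, 5 of 10 genes were called higher and 1 lower, against 2.71% and 1.80% of all genes. The values of the lines did not overlap for 8 of 10 member probes outside the middle, where 19.6% of probes did not, and for both probes in the middle, where 28.5% did not. The median log2 fold change of the 9 genes with a probe outside the middle was 0.58 as normalized, and that of all 10 genes was 0.92 as normalized and 1.06 position adjusted, beside a median of -0.04 for all genes as normalized and of 0.10 for the probes outside the middle position adjusted. An exact permutation test of a single probe, 3 arrays against 3, cannot fall below p = 0.1 (two-sided), and each of the probes without overlap reached that value.

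**Figure D1:**
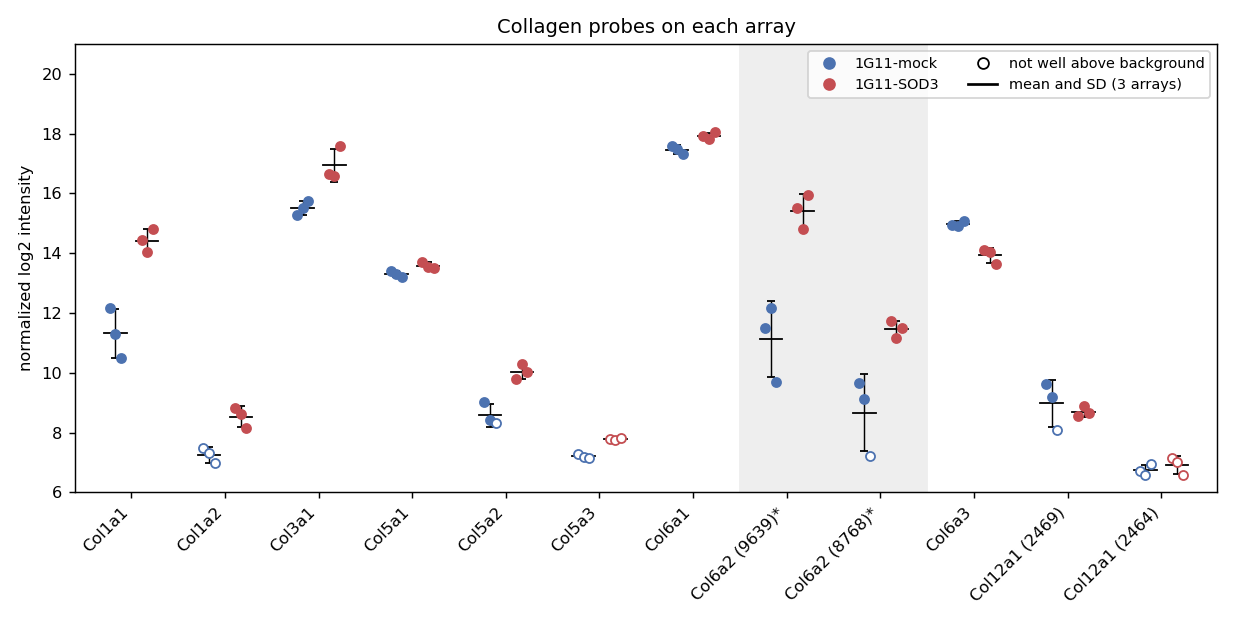
Normalized log2 intensity (vertical axis) of each of the 12 collagen probes on the 3 1G11-mock (blue) and 3 1G11-SOD3 (red) arrays, with the mean and SD. Open circles are spots not well above background, and the gray band and asterisks mark the *Col6a2* probes in the middle of the array. Probes of *Col6a2* and *Col12a1* carry the end of their probe name. The red points lie above the blue ones for 9 probes, below them for *Col6a3*, and overlap them for both *Col12a1* probes.

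*Col1a1*, the main chain of type I collagen, showed the largest difference among the members outside the middle. It read 12.15, 11.31 and 10.50 on 1G11-mock arrays 1, 2 and 3, and 14.43, 14.03 and 14.80 on the 1G11-SOD3 arrays. The lowest 1G11-SOD3 value stood well over the highest 1G11-mock value, and the 1G11-mock arrays spread more (SD 0.828, n = 3) than the 1G11-SOD3 arrays (SD 0.388, n = 3). The log2 fold change was 3.1 (SE 0.377, 95% confidence interval 2.27 to 3.92), which is 8.55-fold, with an adjusted p of 0.00148. The 86 spots around it had a median difference of 0.62 between the lines. Position adjusted, its 1G11-mock values were 11.92, 11.40 and 11.53, and the change was 2.49 (adjusted p = 0.00104). Among all members outside the middle only this call held with each array left out in turn, with changes from 2.69 to 3.51 and adjusted p up to 0.0180.

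*Col1a2*, the partner chain of type I collagen, read 7.49, 7.33 and 6.97 in 1G11-mock and 8.81, 8.62 and 8.14 in 1G11-SOD3 cells. All 3 1G11-SOD3 spots were well above background and no 1G11-mock spot was, so the 1G11-mock level is only an upper bound. Against the lowest signal that counted as well above background, it was at least 1.36-fold higher in 1G11-SOD3 cells (fitted log2 fold change 1.27, SE 0.256, adjusted p = 0.0222). Its neighbours differed by a median of 0.003, and the position-adjusted change was 1.33 (adjusted p = 0.0140). The call was lost without 1G11-mock replicate 2 (1.30, adjusted p = 0.0749) or 3 (1.12, adjusted p = 0.0672) and without 1G11-SOD3 replicate 1 (1.12, adjusted p = 0.103) or 2 (1.22, adjusted p = 0.0827). It was also lost with no background correction (0.80) and with scaling to the 75th percentile (0.90, adjusted p = 0.100).

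*Col3a1*, the chain of type III collagen, was bright in both lines. It read 15.27, 15.51 and 15.74 on the 1G11-mock arrays and 16.65, 16.60 and 17.58 on the 1G11-SOD3 arrays. The groups did not overlap, and 1G11-SOD3 replicate 3 was the highest by far. The log2 fold change was 1.43 (SE 0.292, 95% confidence interval 0.79 to 2.08), or 2.70-fold, with an adjusted p of 0.0231. The spots around it differed the other way (median -0.25), and the position-adjusted change was 1.68 (adjusted p = 0.0210). The adjusted p passed 0.05 when 1G11-mock replicate 1 (1.32, adjusted p = 0.0643) or 2 (1.44, adjusted p = 0.0884) was left out, and also when 1G11-SOD3 replicate 3 was (1.12, adjusted p = 0.0766).

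Of the 3 type V chains, 1 was called as normalized, and differences between them were not tested. *Col5a2*, the α2 chain, read 9.01, 8.40 and 8.31 in 1G11-mock and 9.81, 10.29 and 10.01 in 1G11-SOD3 cells, with 2 of 3 1G11-mock spots and all 3 1G11-SOD3 spots well above background. Its log2 fold change was 1.46 (SE 0.258, 2.75-fold, adjusted p = 0.0113). The 83 spots around it had a median difference of 0.55, and position adjusted the change was 1.08 (adjusted p = 0.0410). The call was lost when 1G11-mock replicate 2 was left out (1.37, adjusted p = 0.0599), and when 1G11-SOD3 replicate 2 (1.33, adjusted p = 0.0505) or 3 (1.47, adjusted p = 0.0536) was.

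*Col5a1*, the chain that type V trimers share, read 13.39, 13.31 and 13.21 in 1G11-mock and 13.71, 13.53 and 13.51 in 1G11-SOD3 cells. The groups did not overlap, but the difference of 0.28 (95% confidence interval -0.18 to 0.75) did not pass the test (adjusted p = 0.608), and position adjusted it was 0.40 (adjusted p = 0.280). *Col5a3*, the α3 chain, was well above background on no array. Its spots read 7.29, 7.18 and 7.16 on the 1G11-mock arrays against 7.78, 7.77 and 7.82 on the others (adjusted p = 0.205), and the values bound its level only from above. After position adjustment its difference of 1.04 passed the test (adjusted p = 0.0191), at a spot with no signal well above background. The surface taken off was drawn from spots with such signal, and whether it holds for dim spots was not tested.

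The 3 chains of type VI collagen were read by 4 probes. *Col6a1* was bright in both lines, reading 17.59, 17.50 and 17.32 in 1G11-mock and 17.91, 17.83 and 18.04 in 1G11-SOD3 cells. Its difference of 0.46 (95% confidence interval -0.01 to 0.93) did not pass the test as normalized (adjusted p = 0.362). The spots around it differed by a median of -0.45, and position adjusted the change was 0.87 (adjusted p = 0.0590). With the processed signal of the scanner software, scaled to the 75th percentile, it was 1.03 and was called higher (adjusted p = 0.0347).

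*Col6a3*, the largest of these chains, was the only member called lower. It read 14.96, 14.91 and 15.07 on the 1G11-mock arrays and 14.11, 14.05 and 13.63 on the 1G11-SOD3 arrays, without overlap. The log2 fold change was -1.05 (SE 0.227, 95% confidence interval -1.55 to -0.55, adjusted p = 0.0306), just past the 2-fold threshold. The 89 spots around the probe differed the same way (median -0.30). Under all alternatives the change of *Col6a3* stayed below 0, with position adjustment giving -0.84 (adjusted p = 0.0575). The call ended under that adjustment and under 4 other settings with all arrays, and with any of the 6 arrays left out, which gave -1.14 to -0.90 and adjusted p from 0.0602 to 0.117.

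*Col6a2* was read by 2 probes, both in the middle. The first read 11.50, 12.18 and 9.71 in 1G11-mock and 15.51, 14.82 and 15.95 in 1G11-SOD3 cells (log2 fold change 4.30, SE 0.525, adjusted p = 0.00151). The second, designed on another transcript record, read 9.66, 9.14 and 7.21 against 11.72, 11.18 and 11.50 (2.79, SE 0.499, adjusted p = 0.0119). Its spot on 1G11-mock array 3 (7.21) was not well above background, so that reading is only an upper bound. On both probes, 1G11-mock array 3 was the lowest, as it was for the repeated probes in the middle. The spots around them differed by medians of 1.96 and 1.97. Position adjusted, the first probe changed by 2.21 (adjusted p = 0.0113) and the second by 0.92 (adjusted p = 0.0728), which was not called. The second was also not called without 1G11-SOD3 replicate 3 (2.78, adjusted p = 0.0679). How much of either change belongs to the place was not tested beyond this adjustment.

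**Figure D2:**
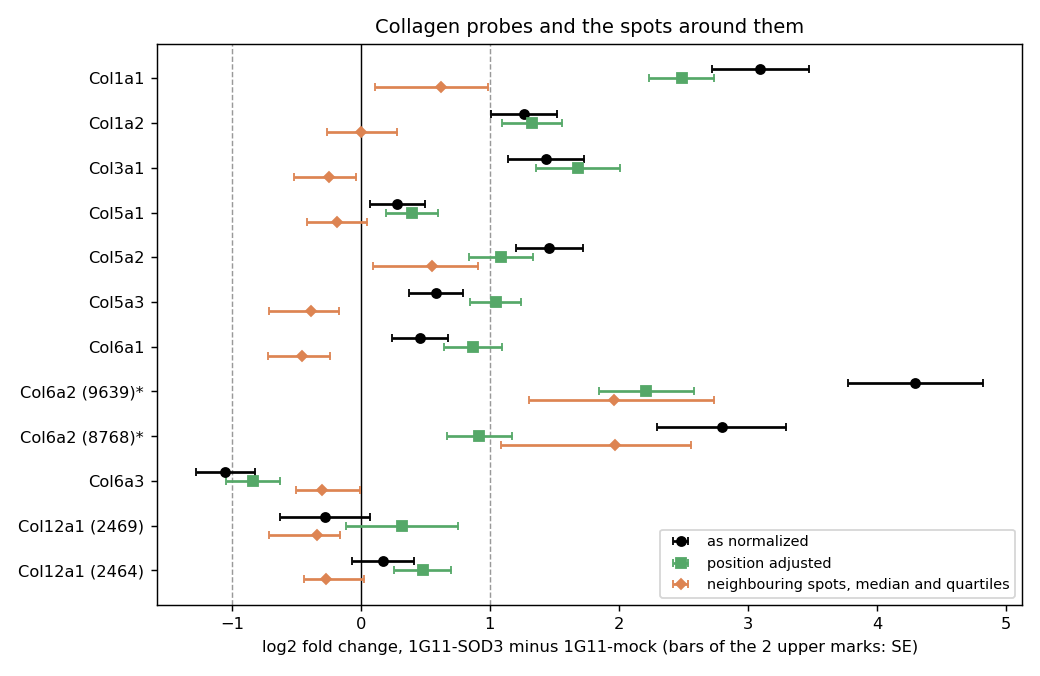
Log2 fold change (1G11-SOD3 minus 1G11-mock, horizontal axis) of each collagen probe as normalized (black) and position adjusted (green), with SE, and the median and quartiles of the same difference over the spots around it (orange). Dashed lines mark 2-fold, and asterisks mark probes in the middle. The difference between the first 2 marks is largest for the *Col6a2* probes, where the surroundings differed by about 2 units.

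**Figure D3:**
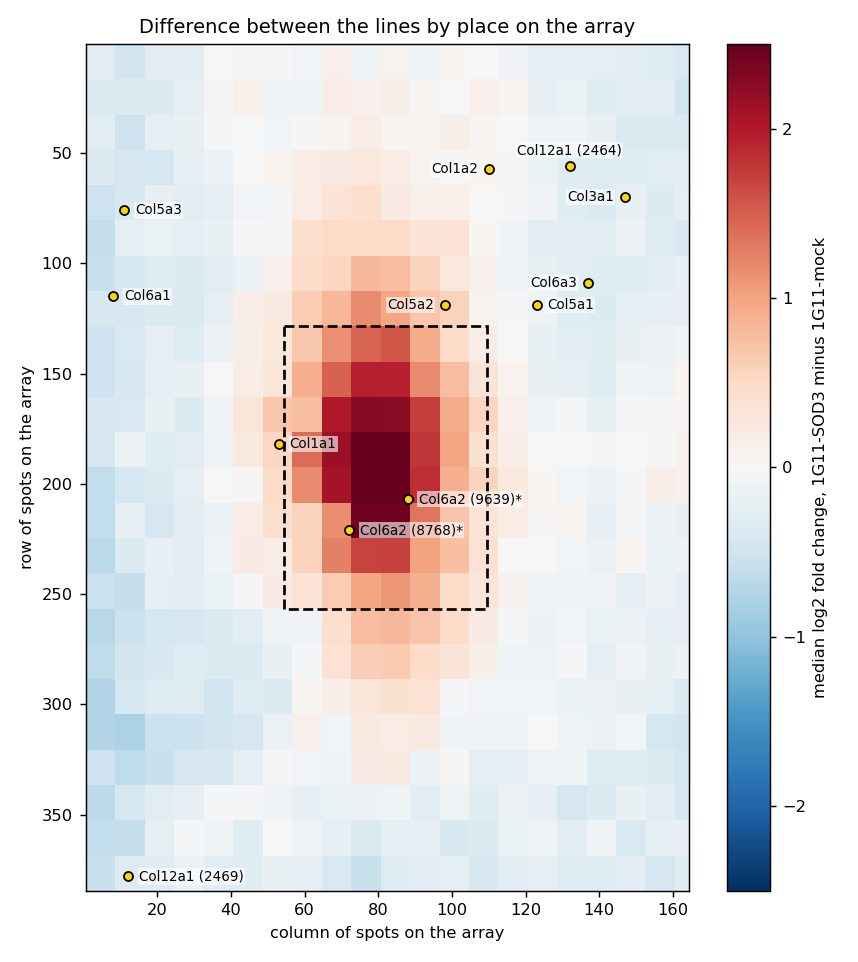
Median log2 fold change (color) of the spots in each block of 16 rows and 8 columns of the array, with the middle outlined by a dashed line and the collagen spots marked in gold. The color scale ends at 2.5 in both directions. The *Col6a2* spots lie where the difference was high, *Col1a1* and *Col5a2* lie near that area, and the other spots lie where the median was near or below 0.

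*Col12a1*, whose product binds to the surface of type I fibrils, was read by 2 probes and called by neither. The first read 9.64, 9.19 and 8.09 in 1G11-mock and 8.56, 8.89 and 8.64 in 1G11-SOD3 cells, which overlapped (log2 fold change -0.28, 95% confidence interval -1.04 to 0.49, adjusted p = 0.777). The spot of this probe on 1G11-mock array 3 (8.09) was not well above background. The sign of its change turned with position adjustment (0.32) and without 1G11-mock replicate 1 (0.054). The second was well above background on no array, at 6.58 to 6.93 and 6.57 to 7.15 (0.17, position adjusted 0.48). Only 21.7% of its bases are G or C, below the lowest percentile of all probes (26.7%).

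Ratios of collagen probes on the same array, for 3 pairs picked with the changes known, give the size of the differences between members. The *Col6a1* over *Col6a3* log2 ratio was 2.63, 2.60 and 2.24 in 1G11-mock and 3.80, 3.78 and 4.41 in 1G11-SOD3 cells, a difference of 1.51 (1.70 position adjusted). The *Col3a1* over *Col5a1* ratio rose from between 1.88 and 2.53 to between 2.94 and 4.07, a difference of 1.15 (1.28 position adjusted). For *Col1a1* over *Col5a1* the difference was 2.81 (2.09 position adjusted). None of the 3 ratios overlapped between the lines (exact permutation test, two-sided p = 0.1, the smallest possible). Because the pairs were picked with the changes known, their lack of overlap was largely set by that choice and is no separate test.

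In the mouse genome (GRCm38.p6, RefSeq), *Col3a1* and *Col5a2*, both called higher, are direct neighbors on chromosome 1 with 0 annotated genes between them. *Col6a2* and *Col6a1* follow each other on chromosome 10 with 0 protein-coding genes between them. RefSeq promoter windows, from 250 bases before to 50 after the start, were at hand for 7 of the 10 genes, and 4 are printed here up to the start because their genes were called higher or share the type VI trimer. *Col6a2* has 2 windows, of which the second is printed. Capitals mark matches on either strand. The searched patterns were the CCAAT box, the TATA box written as TATAAA, the Sp1 motif GGGCGG, the AP-1 motif TGANTCA and the NF-κB consensus, and no match of a pattern overlapped one of another.
Col1a2, chr6:4505368-4505617, plus strand: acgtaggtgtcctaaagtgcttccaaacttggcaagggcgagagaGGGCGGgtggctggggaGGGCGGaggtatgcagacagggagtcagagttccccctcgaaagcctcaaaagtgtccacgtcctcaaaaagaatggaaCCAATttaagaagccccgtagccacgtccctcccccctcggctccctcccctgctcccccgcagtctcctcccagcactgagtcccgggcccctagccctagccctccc
Col3a1, chr1:45311288-45311537, plus strand: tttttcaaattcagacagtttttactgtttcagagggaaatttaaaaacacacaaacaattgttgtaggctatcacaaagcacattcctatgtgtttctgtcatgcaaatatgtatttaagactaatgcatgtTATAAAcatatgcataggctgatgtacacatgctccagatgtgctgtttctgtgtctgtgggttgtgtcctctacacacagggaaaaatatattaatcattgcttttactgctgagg
Col6a1, chr10:76726045-76726294, minus strand: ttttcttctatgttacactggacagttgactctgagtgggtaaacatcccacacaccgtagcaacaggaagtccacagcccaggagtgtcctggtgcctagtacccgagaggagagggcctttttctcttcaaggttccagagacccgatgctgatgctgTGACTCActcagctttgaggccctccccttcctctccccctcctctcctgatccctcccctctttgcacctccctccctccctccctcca
Col6a2, chr10:76623631-76623880, minus strand: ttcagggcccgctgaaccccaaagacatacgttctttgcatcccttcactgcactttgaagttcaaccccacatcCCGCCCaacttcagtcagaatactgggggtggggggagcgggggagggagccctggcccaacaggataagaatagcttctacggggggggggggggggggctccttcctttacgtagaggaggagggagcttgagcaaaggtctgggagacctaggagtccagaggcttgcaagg
The windows had no pattern in common. GGGCGG was found in *Col1a2*, *Col5a1*, *Col5a3* and *Col6a2* and in 35.7% of all 32851 windows, and CCAAT in *Col1a2* and *Col5a3* and in 37.4%. TATAAA was found only in *Col3a1* among these 7 genes (13.6% of all windows), and TGANTCA only in *Col6a1* (7.81%). The NF-κB consensus matched none of them (4.51% of all windows), and *Col6a3* held none of the 5 patterns. G and C made up 37.7% of the *Col3a1* window and 75% of the *Col5a1* window, around a median of 52.7% for all windows. A match in these letters does not show binding.

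The rest of the collagen machinery was read through 8 lists of genes and the cell types through 4 more, with 1 probe for each gene, chosen outside the middle where there was one. Over the 12 lists of 130 genes, of which *Prelp* had no probe, 17 genes were called higher and 6 lower. Of all genes, 2.71% were called higher and 1.80% lower, and these shares also stand beside each list below. The higher count holds *Fkbp10* and *Krt14*, read in the middle, where 11.9% of probes were called higher. No list was tested as a set. None of the 5 other fibrillar chains and none of the 3 other type VI chains was called. All 3 of the latter were well above background on no array. Of 8 other collagens of the type XII class, which bind to fibrils, 2 were called lower, namely *Col14a1* (log2 fold change -2.0, adjusted p = 0.00313), read at 14.58, 14.17 and 14.38 in 1G11-mock against 12.10, 12.07 and 12.96 in 1G11-SOD3 cells, and *Col20a1* (-1.07, adjusted p = 0.0364).

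Among 14 genes for folding, export and trimming of procollagen, 3 were called higher and 0 lower (list median 0.13). *Adamts2*, which cuts the amino-terminal propeptide off fibrillar procollagens, read 12.42, 11.53 and 10.80 in 1G11-mock and 14.55, 14.29 and 13.82 in 1G11-SOD3 cells (2.64, adjusted p = 0.00323, position adjusted 2.0). *Serpinh1*, the procollagen chaperone HSP47, rose by 1.38 (adjusted p = 0.0190, position adjusted 1.05). The third, *Fkbp10*, lies in the middle and was not called after position adjustment (0.91).

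Among 14 partners of fibrils and of type VI collagen, 4 were called higher and 1 lower (median 0.65), the rise comprising *Fmod* (1.97, adjusted p = 0.0249) and *Lum*, small proteoglycans that bind fibrils, *Thbs1* (1.29, adjusted p = 0.0226), an adhesive glycoprotein, and *Eln*, the elastin gene. *Lum* and *Eln* were well above background on no 1G11-mock array and were at least 2.24-fold and 1.57-fold higher. *Tnxb*, a fibril-binding tenascin, was lower by -2.35 (adjusted p = 0.0297). *Prelp* matched no probe.

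Of 11 collagen receptors, *Itga11*, whose product binds type I collagen with the integrin β1 chain, was called higher and *Mrc2*, an endocytic collagen receptor, lower. *Itga11* read 8.02, 7.72 and 7.72 in 1G11-mock, all not well above background, and 10.22, 10.17 and 9.92 in 1G11-SOD3 cells, at least 4.03-fold higher (adjusted p = 0.000384). *Mrc2* changed by -1.87 (adjusted p = 0.00717) and by -1.22 position adjusted (adjusted p = 0.0635). None of the 8 collagen-degrading enzymes was called, but 6 of them were well above background on no array. Of 14 transcription factors and inducers of collagen genes only *Creb3l1*, a membrane-bound factor that drives type I collagen transcription in bone, was called. It read 10.38, 10.35 and 10.11 in 1G11-mock and 11.90, 11.52 and 11.69 in 1G11-SOD3 cells (1.43, adjusted p = 0.00571, position adjusted 1.21).

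Markers were read beside the collagens because fibroblasts and mural cells make much of them. In RNA of whole cultures, a change in the number of cells of a type and a change in RNA per cell cannot be told apart. Of 16 endothelial markers, 6 were well above background on no array, among them *Cdh5*, which encodes vascular endothelial cadherin (6.62 to 7.27 in 1G11-mock against 6.92 to 7.14 in 1G11-SOD3 cells). The study states that staining for this cadherin was used to check regularly that 1G11 cells are endothelial, which reads protein and not RNA. *Pecam1*, another endothelial adhesion molecule, was detected on 2 1G11-mock arrays and 1 1G11-SOD3 array (8.02 to 8.78 and 7.65 to 8.18, adjusted p = 0.445). Well above background on every array of a line were 8 markers, among them *Kdr* (12.77 to 12.97 and 12.31 to 12.45, adjusted p = 0.293) and *Eng* (13.25 to 14.28 and 12.52 to 12.99, adjusted p = 0.0822). *Flt1* (1.07) and *Esam* (1.22), both read in the middle, and *Icam2* (0.070) were among them too. Of the genes just named none was called. *Egfl7* (1.82) and *Cd34* (1.11) were called higher and *Vwf* (-1.65) lower, and the summed level of the list ranged from 15.96 to 16.38 and from 16.76 to 16.92 on the log2 scale. Most of that sum was *Cd34*, at 15.28 to 15.82 and 16.52 to 16.66, so that the sum does not stand for the other markers.

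Of 16 fibroblast and mural markers, 5 were called higher and 1 lower. Well above background on no array were 6, namely *Tcf21*, *Myh11*, *Des*, *Rgs5*, *Abcc9* and *Kcnj8*. *Acta2*, smooth muscle actin, read 10.10, 10.34 and 10.62 in 1G11-mock and 13.44, 13.15 and 12.32 in 1G11-SOD3 cells (2.62, adjusted p = 0.00107). *Pdgfrb*, a receptor of mural cells, was called higher (2.39, adjusted p = 0.000348), with 1 of 3 1G11-mock spots (8.41, 8.25 and 8.12) and all 3 1G11-SOD3 spots (10.67, 10.48 and 10.79) well above background, and *Cnn1*, a contractile protein, was at least 4.69-fold higher (adjusted p = 0.00309). *Prrx1* (1.91) and *Tagln* (1.45) were the other 2. *Ly6a* was lower by -2.12 (adjusted p = 0.000844), and *Pdgfra*, a fibroblast marker, was not called (0.27, adjusted p = 0.619). The summed level of this list ranged from 14.11 to 14.18 and from 14.67 to 15.04. It held *Ly6a*, at 12.57 to 13.08 and 10.56 to 10.93. It also held *Twist2*, read in the middle at 11.04 to 12.17 and 12.58 to 12.83, with a position-adjusted change of 0.04. This sum does not stand for each marker of the list. *Krt14*, a keratin read in the middle, was called higher (4.82, position adjusted 2.01 with an adjusted p of 0.00184) and was the only one of 12 epithelial markers called (summed level 16.07 to 16.79 and 15.81 to 16.48), and 0 of 8 leukocyte markers were called (14.15 to 14.62 and 14.28 to 14.61). Most of the epithelial sum was *Krt19*, at 16.02 to 16.76 and 15.40 to 16.35. Most of the leukocyte sum was *Itgam*, at 13.91 to 14.40 and 14.06 to 14.44. In each of these lists 5 markers were well above background on no array, so the sums do not stand for the other markers. The part of these markers in the collagen changes was not tested.

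With each array left out in turn, the calls of *Col14a1*, *Adamts2*, *Itga11*, *Mrc2*, *Creb3l1*, *Vwf*, *Acta2*, *Pdgfrb*, *Cnn1* and *Ly6a* held. Those of *Col20a1*, *Serpinh1*, *Fmod*, *Lum*, *Thbs1*, *Tnxb*, *Egfl7* and *Cd34* did not, with adjusted p of up to 0.139. Position adjustment ended the calls of *Col20a1* (-0.55), *Mrc2*, *Egfl7* (0.99) and *Vwf* (-1.31), besides *Fkbp10*, and of the list genes named here it ended no other call. *Fkbp10*, *Eln*, *Prrx1*, *Tagln*, *Twist2*, *Krt14*, *Krt19*, *Itgam*, *Kdr*, *Eng*, *Flt1*, *Esam* and *Icam2* were named after their values were seen. So were the fibroblast and mural markers named as well above background on no array.

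**Figure D4:**
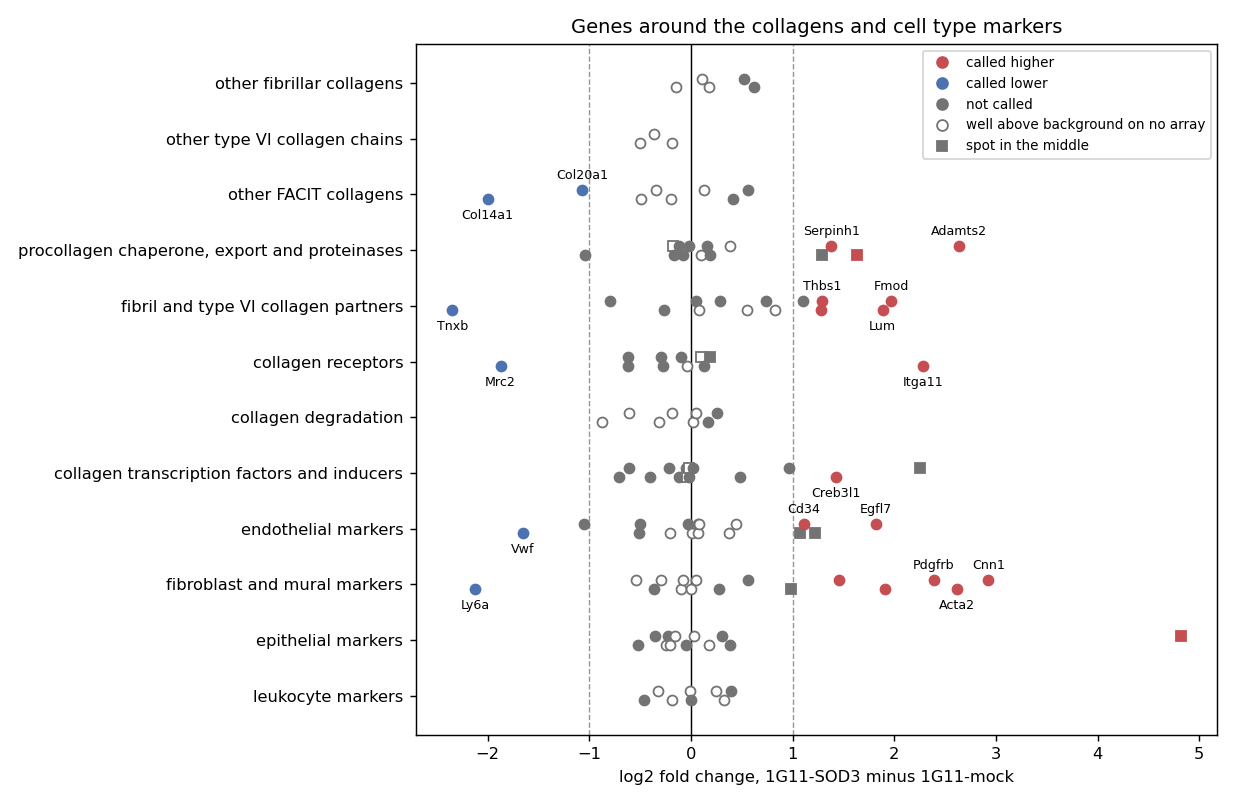
Log2 fold change (1G11-SOD3 minus 1G11-mock, horizontal axis) of each gene of the 12 lists (vertical axis), 1 symbol for each gene, red if called higher, blue if called lower and gray if not called. Open symbols were well above background on no array, squares mark spots in the middle, and dashed lines mark 2-fold. Calls in both directions are seen among partners, receptors and the endothelial and fibroblast lists, and the 2 called genes of the type XII class are both lower.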

How the data were processed

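The authors deposited, for each of the 6 arrays, the spot intensities from Feature Extraction 10.7.3.1, with local background and a processed signal, not normalized between arrays. They also deposited a table of log2 values, corrected with normexp at an offset of 50, quantile normalized and tested with limma. Its columns were recomputed to within 0.005. All values here start from the mean spot intensity and the median of its local background, with the same normexp offset, log2 and quantile normalization over non-control spots (limma 3.58.1, R 4.3.3). Spots marked as outliers were left out. Copies of a probe were averaged apart in the middle and outside it. The lines were compared with lmFit and eBayes over 55961 probe and place combinations, with Benjamini-Hochberg adjustment over all of them and no filter. The design was tested on simulated data, where 198 of 200 changed probes were found and 20 others were called.

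For position adjustment, a Gaussian kernel (SD of 8 rows and 4 columns, own spot left out) was run over each array's deviation from the mean of the 6 arrays, at spots well above background on at least 3 of them, and taken off before normalization. Spots around a probe lie within 10 rows and 5 columns. A gene was represented by its brightest probe outside the middle, or inside it if it had no other. A bound sets a line with no spot well above background at the lowest signal that was, array by array.

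Named by rule were the members, *Cdh5*, *Pecam1*, *Pdgfra* and *Sod3*. From each list the rule took at most 4 genes called outside the middle with the largest change. Other list genes with values were named after these values were seen. Members, lists and alternatives were chosen with earlier results of these data known. The study states 3 biological replicates for each line. The number of arrays limits the precision of each difference, and signal over background limits the dim probes. Same-numbered arrays of the lines deviated together (correlations of 0.203, 0.141 and 0.151 over probes), so the number was used as a block in an alternative. Alternatives changed the background correction, the offset, the pixel summary, the signal, the normalization, controls, outlier spots, dim probes, variance model, place, source table, block and arrays. Protein sequences and promoters of *Col1a1*, *Col5a2* and *Col12a1* were not analysed here. Sequences and plots were handled with pandas 2.3.3, matplotlib 3.10.9 and numpy 2.4.6 under Python 3.11.15.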

Additional observations from a re-analysis of the deposited data

How the results depend on the processing

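As normalized, 920 probes outside the middle were called, 35.5% of them higher. The processed signal called 7923 (8.54% higher) and scaling to the 75th percentile 1551 (30.6% higher), with the median log2 fold change of all these probes at -0.50 and -0.35 in place of -0.06. Relative to that median *Col6a3* changed by -0.18 and -0.52. Position adjustment moved the median to 0.10 and the share called higher to 57.0%. Relative to the median under that adjustment, *Col5a2* changed by 0.98 and *Col5a3* by 0.94, both below 2-fold. *Col1a1*, *Col1a2* and *Col3a1* changed by 2.38, 1.22 and 1.58 in the same measure. Under an offset of 16, the processed signal, scaling to the 75th percentile, cyclic loess and position adjustment, 0 member probes outside the middle, and 0 member genes, were called lower, and with position adjustment 1 of the 2 middle probes was called higher. With the processed signal 20 genes of the lists were called lower in place of 6. Over all probes outside the middle 7246 were called lower in place of 593, so the list count is not read as a result about the lists.

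With arrays left out in turn, 448 to 856 probes outside the middle were called. Of all probes there, 156 to 332 were called higher and 291 to 524 lower, against 327 and 593 with all arrays. The matching counts for all middle probes and all genes are not given here. Of the member probes, 1 to 3 outside the middle were called higher, 0 were called lower, and 1 to 2 in the middle were called higher. Over member genes, 2 to 4 were called higher and 0 lower, and over the lists 10 to 14 were called higher. The lowest counts of member probes outside the middle (1) and of member genes (2) came without 1G11-mock replicate 2, and 2 such probes were called without 1G11-SOD3 replicate 2 or 3. With the replicate block 1244 probes outside the middle were called, and no call of a member changed. The directions of *Col12a1* turned for the first probe under position adjustment (0.32) and over the arrays left out (-0.72 to 0.054), and for the second under the processed signal (-0.52) and 75th percentile scaling (-0.25). *Cdh5*, at background, turned under the same settings (-0.85 and -0.33) and over the arrays left out (-0.083 to 0.24). The settings for the lists were chosen after seeing the data. All other directions of members were kept under each alternative run. The cause of these changes was not tested.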
